A study of Saccharomyces cerevisiae with 49 samples.

Results

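The comparison covers the last stretch before the surge of growth-related transcripts in the oscillation of a yeast culture. It set the 4 samples taken from 14.92 h to 15.17 h, at phase angles of 330.63 to 354.23 degrees, against the 4 samples taken from 14.50 h to 14.75 h, at 291.30 to 314.90 degrees, so that 8 of the 49 samples of the series were used. The groups are called phase 331-354 and phase 291-315, and the samples were chosen by their phase angle alone. All samples came from a fermentor fed continuously, in which CEN.PK113-7D, a laboratory strain of budding yeast of mating type a with no further allele or agent named, grew on glucose medium at pH 4.0 and 30 °C with a period of about 4 h. Total RNA of 1 sample every 5 min was hybridised to 1 Affymetrix Yeast Genome 2.0 array. The samples of a group are successive samples of an oscillating culture rather than separate cultures. The p-values therefore measure a difference against the spread between such samples, which are not fully independent. That spread includes any steady change in time within a group.

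A slow continuous culture of budding yeast can synchronise itself into metabolic cycles. In such cycles a burst of transcripts for ribosome assembly, sulfur metabolism and biosynthesis alternates with a phase in which cells express genes of reserve sugars, fatty acid breakdown and stress resistance. Building a ribosome needs RNA polymerase I for the large ribosomal RNAs, RNA polymerase III for the small ones and for tRNAs, and a large set of assembly factors that fold, cut and modify the RNA in the nucleolus. Daughter-specific genes, expressed after mitosis, encode enzymes that digest the septum between mother and daughter.

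The labels do not give the event that defines phase 0, so the position of the surge was checked on ribosome biogenesis genes. The geometric mean signal of 130 such genes was 1840, 1968, 2181 and 2619 in the 4 samples of phase 331-354, against 1477, 1552, 1519 and 1657 in those of phase 291-315, in order of time. It was 4288, 7554, 8220.4 and 6318 in the 4 samples that followed, at 362.04 to 385.0 degrees. The compared samples thus lay before the steepest part of the increase, and every sample of phase 331-354 exceeded every sample of phase 291-315.

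Signals are given after every array was scaled to 1 common median, and a difference is the mean log2 signal of phase 331-354 minus that of phase 291-315. A probe set was called at an adjusted p under 0.05 (limma, two-sided, Benjamini-Hochberg over 5470 probe sets). Of these, 380 (6.95%) were higher in phase 331-354 and 357 (6.53%) were lower. The changes were small. Among the calls, 5 were higher and 5 lower by at least 2-fold, the median fold was 1.34 among those higher and 0.80 among those lower, and the median difference over all probe sets was -0.04. The groups did not overlap for 629 probe sets (11.5%) that were higher and for 838 (15.3%) that were lower.

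The calls lay near the threshold and rested on few samples. Of the 737 calls, 546 had an adjusted p over 0.03, and the lowest was 0.0221. Without the sample at 291.30 or at 299.17 degrees 0 probe sets were called, and without that at 307.04 or at 346.37 degrees 0 were called higher and 1 lower, although 1562 to 2161 had an unadjusted p under 0.05 in each refit that left out a sample, against 1946 with all 8. Counts were 209 higher and 152 lower without 314.90 degrees, 186 and 128 without 338.50 degrees, 300 and 270 without 354.23 degrees, and 587 and 670 without 330.63 degrees. Every called probe set kept its sign in each of these refits. The calls were chosen from the same samples for differences large beside their SE, so this gives no separate support. With values as deposited, where the median difference was 0.23 in place of -0.04, 1494 were called higher and 46 lower (97.0% higher, against 51.6% after scaling), and with the 75th percentile set equal 69.1% of the calls were higher. Directions below are therefore relative to the array median, and whether the amount of messenger RNA per cell changed was not measured.

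Ribosome assembly genes were the list with the most calls, all in the same direction. Of 130 tested (1 of the 131 listed was not), 97 (74.6%) rose in phase 331-354 and 0 fell, against 6.95% of all probe sets called higher. The median difference was 0.46, or 1.37-fold, beside -0.04 for all probe sets, and it was 0.73 with values as deposited. The groups did not overlap for 112 of the 130, against 11.5% of all probe sets, and 129 differences were above 0, with NOP10 below it. All 97 calls were lost without the sample at 291.30, 299.17, 307.04 or 346.37 degrees, whereas the median stayed between 0.35 and 0.53 in the refits that left out a sample.

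**Figure D1:**
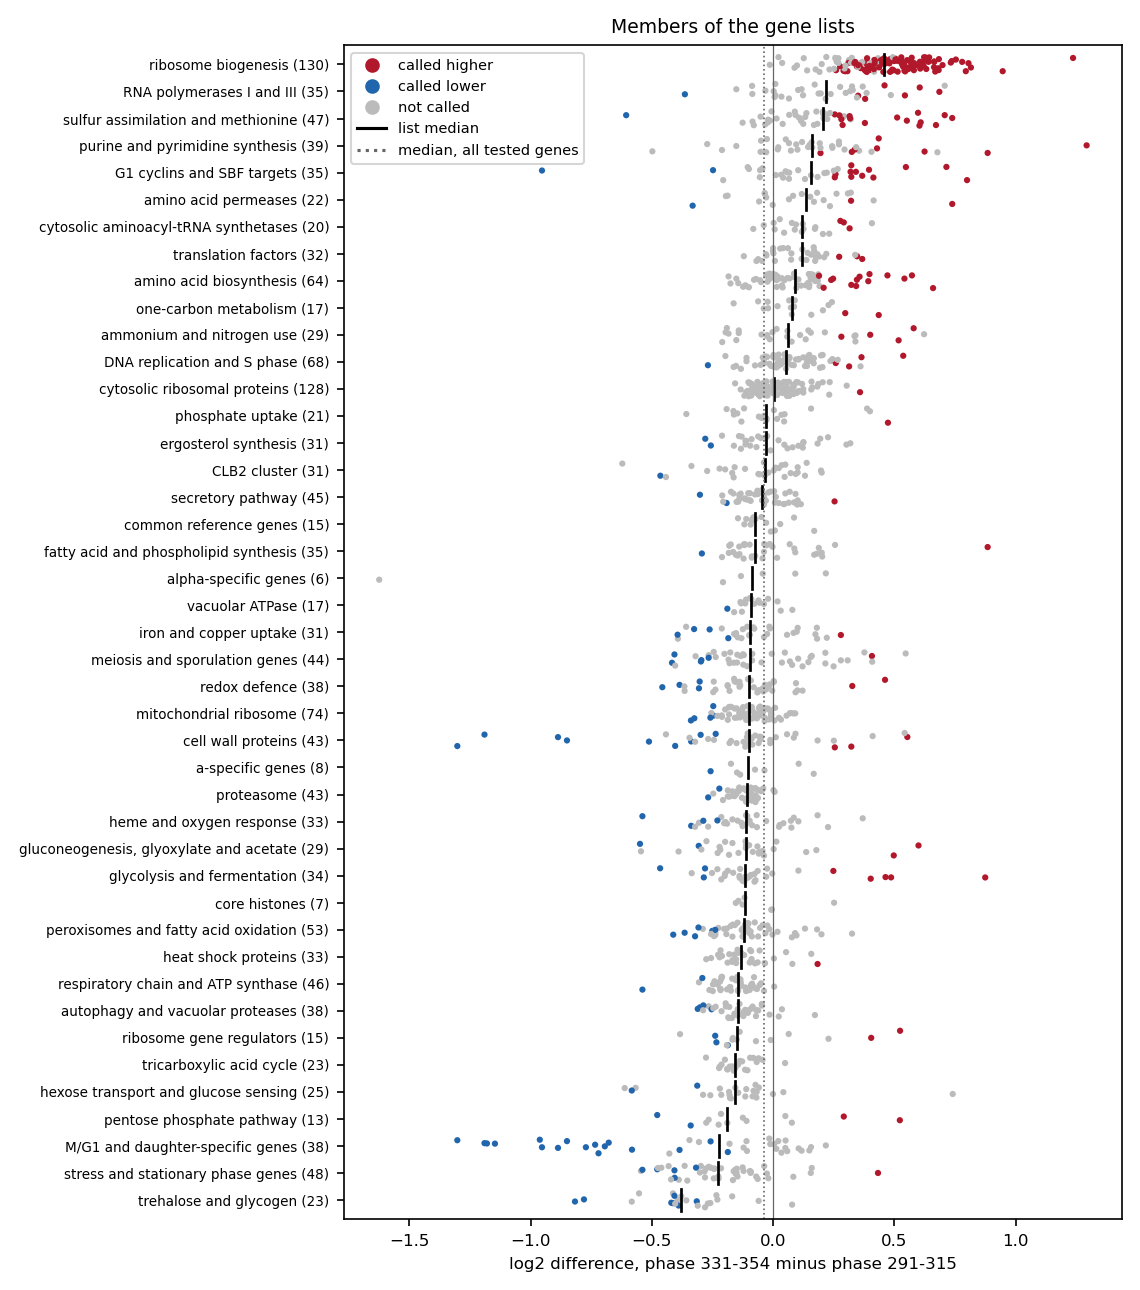
Log2 difference of each tested member of 43 gene lists (points, phase 331-354 minus phase 291-315), with red for genes called higher, blue for genes called lower and grey for genes not called. Black bars are list medians, the dotted line is the median of all tested genes and the number of tested members stands in brackets. Ribosome biogenesis stands at the top with a median of 0.46 and trehalose and glycogen at the bottom with -0.38. The medians of 29 lists, all below 0 here, change sign with values as deposited.

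DBP2, an RNA helicase, had the largest rise in the list. Its signal was 1229, 1593, 1935 and 3129.8 in phase 331-354, against 721.9, 741.3, 813.6 and 885.4 in phase 291-315, in order of time. It climbed from sample to sample within both groups, and its lowest later value exceeded its highest earlier one. The difference was 1.24 (SE 0.24, 2.35-fold, limma adjusted p = 0.0288).

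NSR1, a nucleolar protein of ribosomal RNA processing, had 4732, 5419, 6265 and 7615 in phase 331-354, against 2954, 2688, 3216 and 3474 in phase 291-315. The difference was 0.95 (SE 0.14, limma adjusted p = 0.0221). HAS1, a helicase that acts in the assembly of both subunits, had 1759, 1919, 2288 and 2923 in phase 331-354, against 1130.2, 1232, 1244 and 1399 in phase 291-315 (difference 0.81, SE 0.14). MAK16, a factor of the large subunit, differed by 0.82 (SE 0.14, limma adjusted p = 0.0244) and had a different course. It stood at 986.7, 977.8 and 1013 in the first 3 samples of phase 331-354 and at 1484 in the last, against 559.1 to 686.6 in phase 291-315.

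The assembly genes were divided by role after their values had been seen, so the division describes them and tests nothing. Among helicases 15 of 17 rose, with a median of 0.46. Factors of the small subunit rose in 37 of 50 cases, with a median of 0.44, and factors of the large subunit in 35 of 48, with 0.47. Of 8 core proteins of the small nucleolar particles, which guide the modification of ribosomal RNA, 5 rose, with a median of 0.48. Whether these 4 medians differed was not tested.

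Those particles carry out 2 kinds of modification, and members of both rose. GAR1, of the pseudouridine-forming kind, had 4500.2, 4562, 5466 and 6373 in phase 331-354, against 3438, 2960.0, 3169 and 3974 in phase 291-315 (difference 0.62, SE 0.13). NOP56, of the methylating kind, had a difference of 0.56 (SE 0.12), and NOP1, the methylase itself, had 0.31 and was not called (limma adjusted p = 0.0651).

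Of 35 genes of RNA polymerases I and III, 6 (17.1%) rose and 1 (2.9%) fell, against 6.95% and 6.53% of all probe sets. RNA polymerase I subunits were also set apart after their values were seen. Of 9 subunits, those shared with RNA polymerase III included, 6 (66.7%) rose and 0 fell. Their median difference was 0.46, with a range of 0.12 to 0.69. RPA49, a subunit specific to polymerase I, had 2129, 2436, 2843 and 3231 in phase 331-354, against 1567, 1638.5, 1499 and 1853 in phase 291-315 (difference 0.69, SE 0.12, limma adjusted p = 0.0288). RPA34, its partner in the enzyme, had 2840.4, 3375, 4243 and 4236, against 2093, 2497, 2239 and 2761, with a difference of 0.60 (SE 0.14). RPA190, the largest subunit, differed by 0.28 and missed the threshold (limma adjusted p = 0.0518), with groups that did not overlap.

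The other polymerase genes were called less often, and the difference between these sets was not tested. Of 18 subunits and factors of RNA polymerase III limma called 0, with a median of 0.10. At an unadjusted p under 0.05, 9 were higher and 1 lower, against 830 and 1106 of all 5428 tested genes. Among 8 polymerase I factors 1 (12.5%) was called, against 6.53% of all probe sets called lower. That gene was RRN5, of the upstream activating factor. It fell, with 368.0, 372.8, 334.7 and 329.8 in phase 331-354, against 502.3, 479.5, 422.5 and 407.8 in phase 291-315 (difference -0.36, SE 0.08). RRN11, of the core factor, had 434.7, 477.1, 569.2 and 994.9, against 335.7 to 383.7, and did not pass the test (difference 0.71, limma adjusted p = 0.0601).

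The list of cytosolic ribosomal proteins, which the assembly factors build with, gave 1 call in 128 and a median difference of 0.00. That was 0.8% called higher and 0.0% lower, against 6.95% and 6.53% of all probe sets. Of the 128 differences 65 were above 0 and 63 below. Their geometric mean was 11876, 10997, 12319 and 10967 in phase 331-354, against 11033, 11096, 12533 and 11097 in phase 291-315, so the groups overlapped. The count depended on the setting. It was 15 higher under quantile normalization (median 0.10), 5 with the 75th percentile set equal and 10 with a straight line in time. With values as deposited 25 were called higher (median 0.27, beside 0.23 for all probe sets). Under these 4 settings 0 were called lower. With array number as a term 5 were called higher and 2 lower, with a median of -0.075. RPL13A was the 1 call, with 6329.6, 6241.5, 6942 and 6884 in phase 331-354, against 4701, 5036, 5276 and 5601 in phase 291-315 (difference 0.36, SE 0.07, limma adjusted p = 0.0288). Ribosomal protein genes mostly occur as near-identical pairs, whose transcripts can share probes, so a call for 1 copy is uncertain.

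Among 15 regulators of ribosome genes 2 (13.3%) rose and 3 (20.0%) fell, against 6.95% and 6.53% of all probe sets. IFH1, a coactivator of ribosomal protein genes, had 1156, 1336, 1416 and 1904 in phase 331-354, against 1041, 1045, 904.8 and 992.9 in phase 291-315 (difference 0.52, SE 0.13). TOD6, a repressor of ribosome biogenesis genes, also rose, with 1504, 1599.8, 1627 and 1952, against 1176, 1209.8, 1258 and 1392 (difference 0.40, SE 0.09, limma adjusted p = 0.0305). DOT6, its paralogue with the same role, fell by a smaller amount, with 4138 in phase 331-354 and 4710.5 in phase 291-315 (difference -0.19, SE 0.05). HMO1, a protein of ribosomal DNA and ribosomal protein promoters, differed by -0.23 and the kinase TOR1 by -0.24. SFP1, an activator of the assembly genes, differed by 0.06 and was not called (limma adjusted p = 0.499).

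Sulfur metabolism had the highest median of the metabolic lists. Of 47 genes for sulfur assimilation and methionine 15 (31.9%) rose and 1 (2.1%) fell, against 6.95% and 6.53% of all probe sets. The median difference was 0.20, or 0.47 with values as deposited. The steps that bring in sulfate and reduce it to sulfide held 7 of the calls among 10 genes, with a median of 0.53. None of the 15 rises remained without the sample at 291.30, 299.17, 307.04 or 346.37 degrees.

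MET3, ATP sulfurylase, which activates sulfate, had 5714, 5716, 6413 and 7734 in phase 331-354, against 3409, 3699, 4113 and 4398 in phase 291-315 (difference 0.71, SE 0.11, limma adjusted p = 0.0221). Values within phase 291-315 already climbed from sample to sample. MET14, the kinase of the next step, had 5187, 5456, 6795 and 7043, against 3739.7, 3892, 4316 and 4118 (difference 0.60, SE 0.10). SUL2, a sulfate permease, differed by 0.51 (SE 0.10). MET16, the reductase that follows, differed by 0.55 (limma adjusted p = 0.0448) with groups that overlapped.

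Further along, SAM1, which makes S-adenosylmethionine, had 4758, 5120.1, 6400.1 and 7039 in phase 331-354, against 3331, 3387, 3853 and 3931 in phase 291-315 (difference 0.67, SE 0.12). MUP1, a methionine permease, had 3127, 3529, 4238 and 5268, against 2059.6, 2438, 2224 and 2848 (difference 0.74, SE 0.16). The list's only fall was CBF1, a transcription factor of sulfur genes and of centromeres. It had 543.0, 547.1, 537.8 and 510.3 in phase 331-354, against 883.5, 857.8, 756.8 and 762.8 in phase 291-315, a difference of -0.61 (SE 0.06, limma adjusted p = 0.0221). Its 4 later values lay within a narrow range, far below the earlier ones.

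Nucleotide genes included the largest single rise of any gene list. Of 39 genes for purine and pyrimidine synthesis 8 (20.5%) rose, against 6.95% of all probe sets, and 0 fell, with a median difference of 0.16. With array number as a term 14 were called higher and 1 lower. All 8 calls were lost without the sample at 291.30, 299.17, 307.04 or 346.37 degrees. AAH1, adenine deaminase, which converts adenine to hypoxanthine, had 1845, 2302, 2995 and 4974 in phase 331-354, against 976.9, 1171, 1197 and 1286 in phase 291-315. The values climbed within each group, and the difference was 1.29 (SE 0.26, 2.45-fold, limma adjusted p = 0.0288). URA7, CTP synthase, had 2106, 2312, 2459.9 and 3857, against 1221, 1510.3, 1413 and 1529 (difference 0.88, SE 0.17). FUR1, which salvages uracil, differed by 0.62 and GUA1, GMP synthase, by 0.44. IMD4, an IMP dehydrogenase, differed by 0.68 without passing the test (limma adjusted p = 0.0537). IMD2, of the same family, had the lowest difference of the list, -0.50, and was not called either. Members of this family have near-identical sequences. Of the 39 differences 31 were above 0 and 8 below.

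Amino acid genes were called in 1 direction as well. Of 64 biosynthetic genes 14 (21.9%) rose, against 6.95% of all probe sets, and 0 fell, with a median of 0.09. With array number as a term 12 were called higher and 3 lower, and with a straight line in time 22 and 3. All 14 calls were lost without the sample at 291.30, 299.17, 307.04 or 346.37 degrees. LEU9, an isopropylmalate synthase of the leucine pathway, had 1173, 1340.1, 1469 and 1778 in phase 331-354, against 778.8, 889.5, 905.2 and 1055 in phase 291-315 (difference 0.66, SE 0.13). ARO7, chorismate mutase, had 740.7, 805.8, 888.9 and 1238, against 595.7 to 621.3 (difference 0.57, SE 0.14). The serine pathway had 3 calls, SER2 with 0.54, SER33 with 0.47 and SER1 with 0.19, and the lysine pathway had 4, LYS9, LYS4, LYS12 and LYS1, with 0.32 to 0.40. Of 17 one-carbon genes 2 (11.8%) rose, MIS1 with 0.43 and SHM2, a serine hydroxymethyltransferase, with 0.30.

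Transport and nitrogen genes gave few calls, with shares beside 6.95% of all probe sets called higher and 6.53% lower. Of 22 amino acid permeases 2 (9.1%) rose and 1 (4.5%) fell. The fall was the basic amino acid transporter ALP1, at 815.4 to 922.6 in phase 331-354, against 994.0 to 1173 in phase 291-315. Of 29 genes for ammonium and nitrogen use 4 (13.8%) rose, among them DUR3, a urea and polyamine transporter, which differed by 0.52. Aminoacyl-tRNA synthetases rose in 3 of 20 cases and translation factors in 3 of 32, with medians of 0.12 each. Those shares, 15.0% and 9.4%, lay near the 6.95% of all probe sets for the factors and above it for the synthetases.

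**Figure D2:**
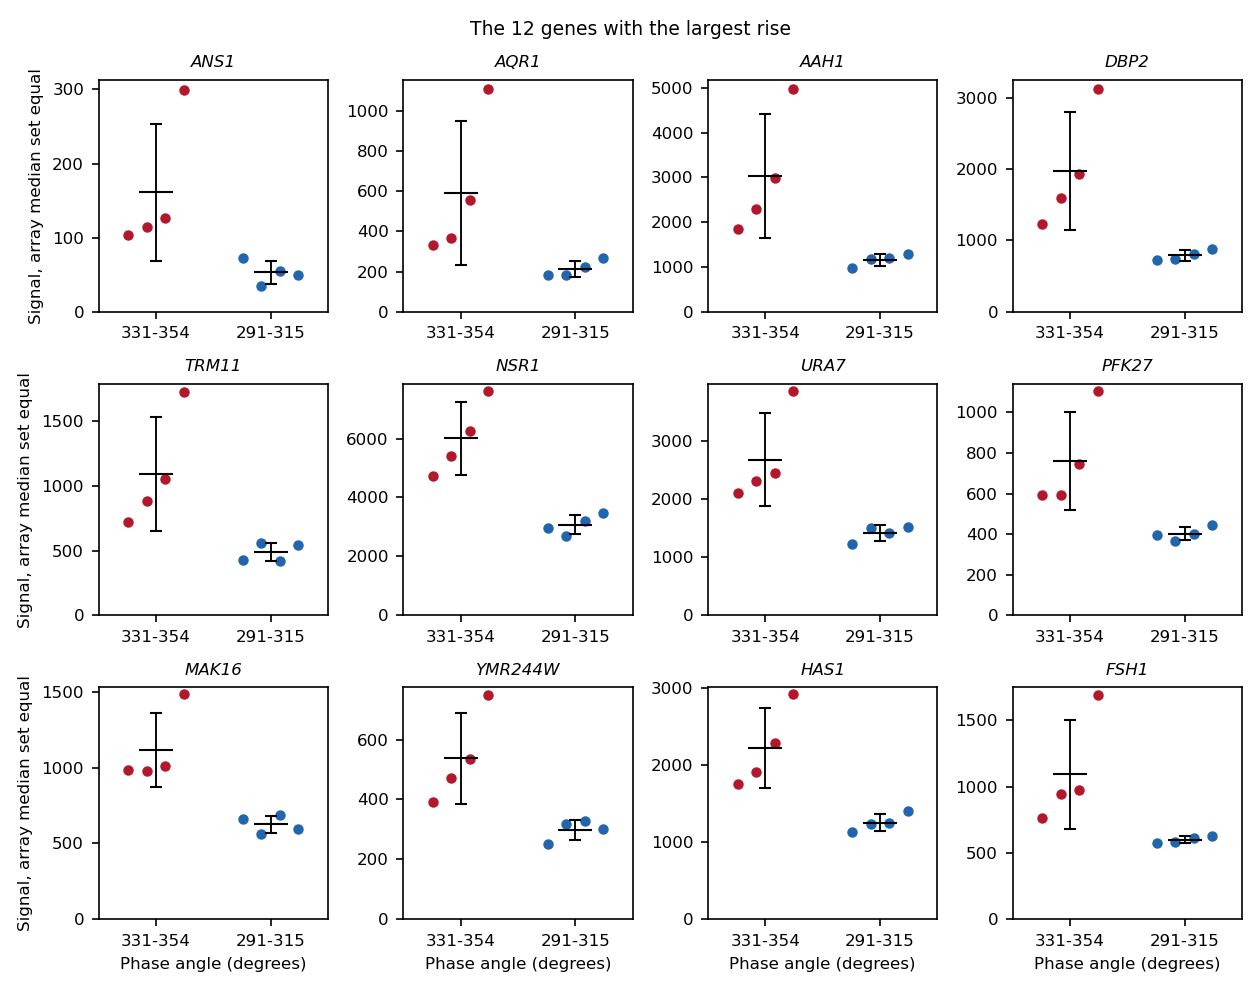
Signal of the 12 genes with the largest rise, for the 4 samples of phase 331-354 (red, left) and the 4 of phase 291-315 (blue, right), each in order of time from left to right. Bars are the mean and SD of 4 samples. The genes were chosen among those whose groups do not overlap, and the last sample, at 354.23 degrees, is the highest for each, as for ANS1 with 299.5 against 103.9 to 126.3 in the other 3 samples of its group.

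Further genes with large rises included a transporter and a tRNA-modifying enzyme. AQR1, a plasma membrane exporter, had 333.2, 368.9, 558.9 and 1108 in phase 331-354, against 180.7, 184.7, 222.2 and 268.3 in phase 291-315 (difference 1.31, SE 0.34, limma adjusted p = 0.0369). TRM11, a subunit of a tRNA methyltransferase, had 720.4, 882.9, 1053.5 and 1723, against 423.2 to 557.7 (difference 1.10, SE 0.24). ANS1 had the largest rise of the 12 genes plotted, 1.51 (SE 0.33), at a low signal of 161.1 in phase 331-354 and 52.9 in phase 291-315. PFK27, a kinase that makes an activator of glycolysis and a member of the glycolysis list, had 594.8, 595.0, 744.7 and 1104, against 367.0 to 444.5 (difference 0.87, SE 0.18).

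Among called genes, those with large falls included many that separate daughter cells from their mothers. Of 38 genes expressed at the boundary of mitosis and G1 or specific to daughters, 17 (44.7%) fell and 0 rose, against 6.53% of all probe sets called lower. The median difference was -0.22 here and 0.05 with values as deposited, where 13 were called lower and 5 higher. The 15 genes of cell separation and its wall proteins, set apart after their values had been seen, lay below 0 without exception, with 11 called and a median of -0.77, or -0.50 with values as deposited. No call of the list remained without the sample at 291.30, 299.17, 307.04 or 346.37 degrees. In a culture sample fewer cells of a stage and less RNA per cell cannot be told apart.

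PRY3, a daughter-specific wall protein, had 2586, 2053, 1654 and 1295 in phase 331-354, against 5577, 4972, 3882 and 3907 in phase 291-315. Its values declined within the later group, and the difference was -1.30 (SE 0.20, a ratio of 0.406, limma adjusted p = 0.0221). DSE4, a daughter-specific glucanase that opens the septum, had 4329, 3954.5, 3554 and 2482, against 9765, 8195, 7692 and 6464 (difference -1.18, SE 0.18). PIR1, a structural wall protein, had 5048, 4189, 3949.8 and 2992, against 11505, 9694.5, 8302 and 7304, with a difference of -1.19 (SE 0.17). Both declined in every successive sample of the 8.

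EGT2, another glucanase of cell separation, had 5251, 4345, 4178 and 3397 in phase 331-354, against 9919, 8515, 8413 and 6565 in phase 291-315 (difference -0.96, SE 0.15). SUN4 and SCW11, wall proteins related to glucanases, differed by -0.89 (SE 0.12) and -0.85 (SE 0.13). The 3 other daughter-specific genes DSE1, DSE2 and DSE3 differed by -0.77, -0.73 and -0.72. CTS1, the chitinase that cuts the septum, had 12100 in phase 331-354 and 15217 in phase 291-315 and did not pass the test (difference -0.34, limma adjusted p = 0.0627).

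**Figure D3:**
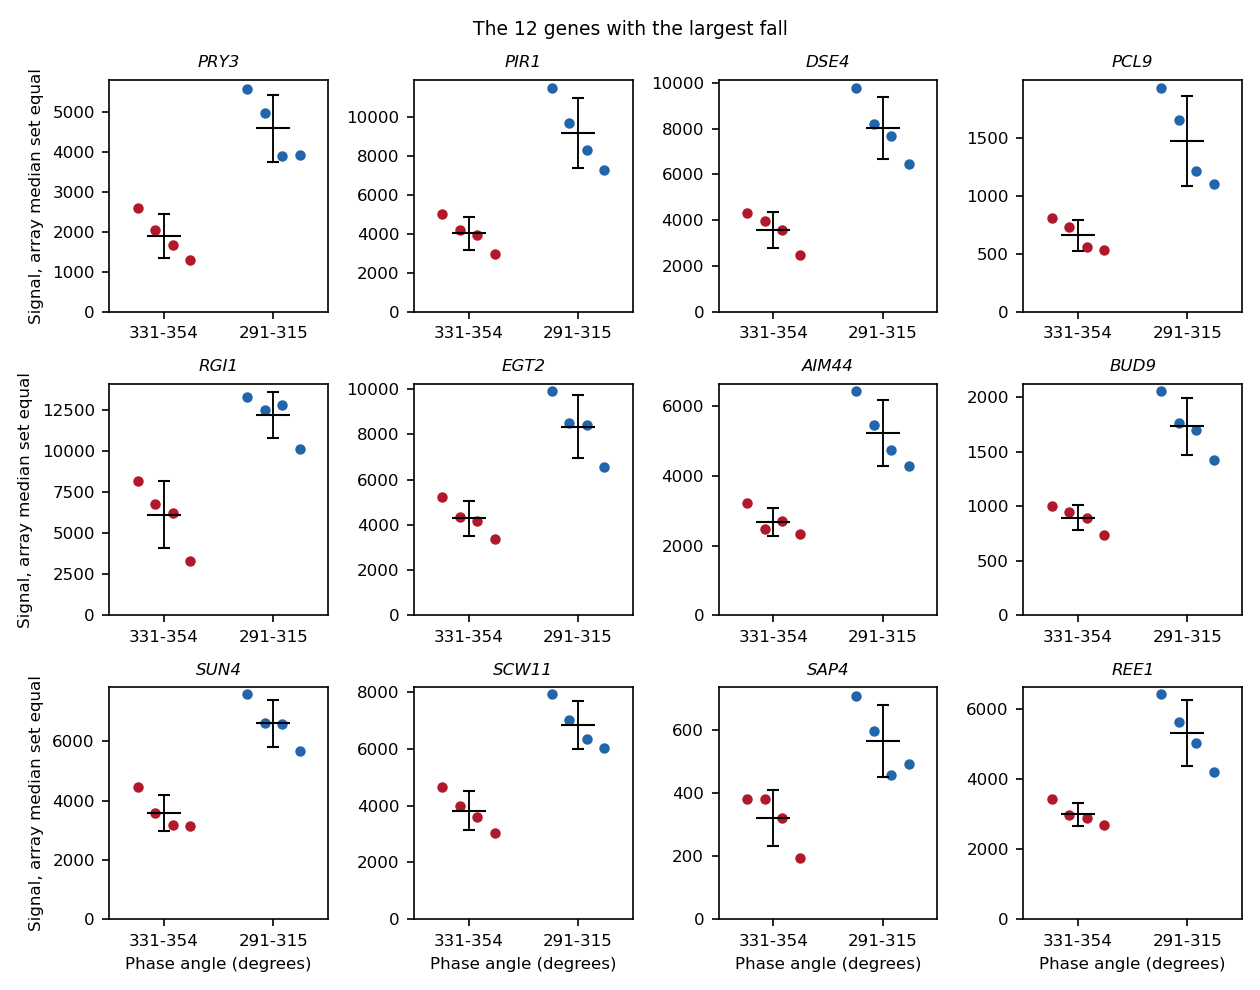
Signal of the 12 genes with the largest fall, for the 4 samples of phase 331-354 (red, left) and the 4 of phase 291-315 (blue, right), each in order of time from left to right. Bars are the mean and SD of 4 samples. The genes were chosen among those whose groups do not overlap, and most values decline within each group, as for PIR1 with 5048 to 2992 in phase 331-354 and 11505 to 7304 in phase 291-315.

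Some regulators in the list were among the 17 falls, and 12 of its 38 members had differences above 0, up to 0.22 for FAR1, an inhibitor of G1 kinase, which was not called. The list's 6 subunits of the MCM helicase, set apart after their values were seen, gave 0 calls, with a median of 0.03 and 5 above 0. At an unadjusted p under 0.05, 1 of the 6 was lower, against 1106 of all 5428 tested genes. SIC1, the inhibitor that holds mitotic and S-phase kinase in check, had 1364, 1455, 1275 and 1155 in phase 331-354, against 2619, 2479, 1738 and 1774 in phase 291-315 (difference -0.69, SE 0.14, limma adjusted p = 0.0288). AMN1, a daughter protein that switches off the mitotic exit network, had 5351, 5093, 4960.5 and 4279.8, against 7136 to 7675 (difference -0.58, SE 0.07). ASH1, a repressor of mating-type switching in daughters, differed by -0.39. PCL9, a cyclin of the kinase Pho85, differed by -1.15 (SE 0.20), and BUD9, a bud site marker, by -0.95 (SE 0.12). Outside the list AIM44, a bud neck protein, had 3220.3, 2485, 2696 and 2323, against 6444, 5472, 4753 and 4278 (difference -0.96, SE 0.14).

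Genes of the next step, the start of a new cell cycle, moved the other way. Of 35 G1 cyclins and targets of the factor SBF, which acts at the commitment to division, 12 (34.3%) rose and 2 (5.7%) fell. Those shares stand against 6.95% and 6.53% of all probe sets, and the list median was 0.16, or 0.43 with values as deposited. No call of this list remained without the sample at 291.30, 299.17, 307.04 or 346.37 degrees. BUD9, which is also a member of the preceding list, was 1 of the 2 falls, and TOS1 the other. GIC2, an effector of the polarity GTPase Cdc42, had 1016, 1303, 1436 and 1595 in phase 331-354, against 655.6, 723.3, 832.7 and 838.1 in phase 291-315 (difference 0.80, SE 0.14, limma adjusted p = 0.0271). RSR1, a GTPase of bud site selection, differed by 0.71 (SE 0.19), and PCL1, a G1 cyclin, by 0.41 (SE 0.08). Cyclins of the start itself were not called, with CLN2 at 0.22 (limma adjusted p = 0.0588) and CLN3 at 0.16 (limma adjusted p = 0.415).

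Later stages gave counts at or below the background of 6.95% of all probe sets called higher and 6.53% lower. Of 68 replication genes 4 (5.9%) rose and 1 (1.5%) fell, with a median of 0.05. MCD1, a subunit of cohesin, had 597.9, 749.1, 761.0 and 800.0 in phase 331-354, against 435.2 to 588.7 in phase 291-315 (difference 0.54, SE 0.12), and RNR1, of ribonucleotide reductase, differed by 0.36. Of 7 core histones limma called 0, with 1 higher at an unadjusted p under 0.05, against 830 of all 5428 tested genes. Of 31 genes of the CLB2 cluster, which peak in mitosis, 1 was called. That gene was SWI5, a transcription factor of the exit from mitosis, with 272.7, 301.3, 253.3 and 241.9 in phase 331-354, against 420.0, 431.7, 287.1 and 351.5 in phase 291-315, a difference of -0.47 (limma adjusted p = 0.0458) with groups that overlapped. CLB2 itself, a mitotic cyclin, was low throughout, with 135.1 to 162.4 in phase 331-354 and 148.0 to 239.1 in phase 291-315.

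Storage carbohydrate genes had the lowest median of the 43 lists. Of 23 genes for trehalose and glycogen 7 (30.4%) fell, against 6.53% of all probe sets, and 0 rose. The median difference was -0.38, or -0.11 with values as deposited. The groups did not overlap for 19 of the 23 genes, against 15.3% of all probe sets, and 22 differences were below 0. The number of calls depended on the setting, with 15 under an intensity trend and 2 with values as deposited, and it was 0 without the sample at 291.30, 299.17, 307.04 or 346.37 degrees, 3 or 4 without that at 338.50 or 314.90 degrees, and 16 or 13 without that at 330.63 or 354.23 degrees.

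GSY2, a glycogen synthase, had 4887, 4244, 3999 and 2833 in phase 331-354, against 7400.1, 6724, 6724 and 6101 in phase 291-315 (difference -0.78, SE 0.15, limma adjusted p = 0.0288). GSY1, its paralogue, had 1538, 1212, 1136 and 855.4, against 2274, 2083, 2025 and 1816.5 (difference -0.82, SE 0.15). Both declined within the later group and were lowest in its last sample. GPH1, which breaks glycogen down, fell too, with a difference of -0.42 (SE 0.10). On the trehalose side TSL1, a subunit of the synthase complex, had 8428, 8189, 7197 and 4731, against 9655 to 10762, and missed the threshold (difference -0.55, limma adjusted p = 0.0517). TPS1, the synthase, differed by -0.39 (limma adjusted p = 0.0577).

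Of 48 genes of stress and stationary phase 5 (10.4%) fell, against 6.53% of all probe sets, and 1 rose, with a median of -0.23, or 0.04 with values as deposited. The count lower was 31 with array number as a term and 0, with 4 higher, as deposited. XBP1, a stress-induced repressor, had 4127, 4079, 3776 and 2807 in phase 331-354, against 4691 to 5046 in phase 291-315 (difference -0.41, SE 0.11). CYC7, an isoform of cytochrome c, had 2656, 2191, 1870.2 and 1619.6, against 2740.0 to 3395 (difference -0.54, SE 0.14, limma adjusted p = 0.0398). YAK1, a kinase that opposes growth, differed by -0.32. RGI1, a protein induced in respiratory growth, lay outside the list and had 8161, 6786, 6232 and 3335, against 13286, 12507, 12801 and 10119 (difference -1.06, SE 0.24). CTT1, the cytosolic catalase, differed by -0.36 and was not called (limma adjusted p = 0.119).

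Mitochondrial and peroxisomal lists gave calls only in the lower direction, at shares of 0.0% to 11.3%, beside 6.53% of all probe sets. Of 74 mitochondrial ribosomal proteins 5 fell, of 46 genes of the respiratory chain and ATP synthase 2, of 23 tricarboxylic acid cycle genes 0, and of 53 peroxisomal and fatty acid oxidation genes 6. Of the tricarboxylic acid cycle genes 10 were lower at an unadjusted p under 0.05, against 1106 of all 5428 tested genes. The medians of the 4 lists lay between -0.10 and -0.16, and all 4 were above 0 with values as deposited. There 3 mitochondrial ribosomal and 7 peroxisomal genes were called higher and 0 genes of the 4 lists lower. With array number as a term, 6, 25, 15 and 22 were called lower, in the order above, and 1 peroxisomal gene higher. LPX1, a peroxisomal lipase, had 4670.1, 4300.5, 4414 and 4195 in phase 331-354, against 6503, 6210.0, 5443 and 5305 in phase 291-315 (difference -0.41, SE 0.08). Heat shock proteins gave 1 call in 33, LHS1, of the endoplasmic reticulum, which rose by 0.18 on the log2 scale.

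Of 34 genes of glycolysis and fermentation 5 (14.7%) rose and 3 (8.8%) fell, against 6.95% and 6.53% of all probe sets, and 28 differences were below 0, with a median of -0.12, or 0.15 with values as deposited. With array number as a term 3 were called higher and 14 lower. The glycerol branch divided by step. The phosphatases GPP1 and GPP2 rose, with differences of 0.40 and 0.46, and the dehydrogenases that precede them, GPD1 and GPD2, fell, with -0.29 and -0.47. GPD2 had 1803, 1764, 1469.9 and 1718 in phase 331-354, against 2139 to 2662 in phase 291-315, and GPP1 had 7345 to 8947, against 5482.5 to 6628. Each of these pairs of genes is a pair of paralogues, whose probes may detect both.

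Gluconeogenesis, the reverse route to glucose, gave 2 calls (6.9%) in each direction among 29 genes, near the 6.95% and 6.53% of all probe sets, with 23 differences below 0. With array number as a term 2 were called higher and 14 lower. FBP1, fructose bisphosphatase, its key enzyme, had 1405, 1283.5, 1244 and 1168.5 in phase 331-354, against 2132, 1850.3, 1745 and 1746 in phase 291-315 (difference -0.55, SE 0.08, limma adjusted p = 0.0221). VID24, which targets that enzyme for destruction, had 1958, 1982, 2507 and 3307, against 1479 to 1725 (difference 0.60, SE 0.15). MAE1, the mitochondrial malic enzyme, rose with 0.50. Of 25 genes of hexose transport and sensing 2 (8.0%) fell, near the share of all probe sets, and 0 rose. The falls were STL1, with -0.58, and SNF3, a glucose sensor, with -0.31, and 23 of the 25 differences were below 0. GAL2 had the lowest difference, -0.61, and was not called. The transporter HXT4 had 1311, 1389.9, 1780.2 and 2818, against 892.3 to 1186, and was not called (difference 0.74, limma adjusted p = 0.0528).

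For these lists the last sample before the surge stood furthest from phase 291-315. Of the 130 assembly genes 120 had their highest value of the 8 samples at 354.23 degrees, against 1048 of all 5428 tested genes. Of the 23 storage carbohydrate genes 21 had their lowest value there, against 2173 of the 5428, so a lowest value in that sample was common over the whole array. Of the 15 cell separation genes all 15 were lowest at 354.23 degrees and 13 were highest at 291.30 degrees, the first sample, where 669 of the 5428 were highest. With the first 2 samples of phase 331-354 alone, 0 probe sets were called higher and 1 lower, and the median of the assembly genes was 0.28 in place of 0.46. Without the last sample that median was 0.35, with 87 genes called, and the count for storage carbohydrates was 13.

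**Figure D4:**
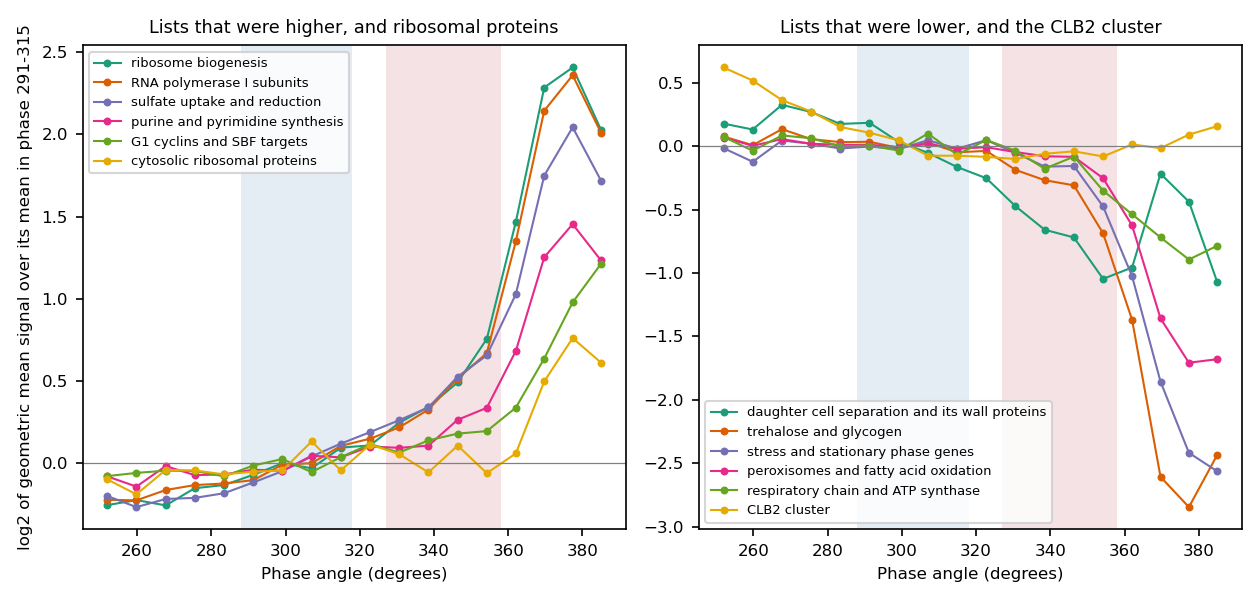
Log2 of the geometric mean signal of gene lists relative to their mean in phase 291-315, by phase angle in degrees, with 1 point per sample. Blue shading marks phase 291-315 and red shading phase 331-354. The ribosome biogenesis genes reach 1.69-fold at 354.23 degrees and 5.30-fold at 377.35 degrees, and the trehalose and glycogen genes 0.621 and 0.139 of their earlier level. Except for daughter cell separation and trehalose and glycogen, the lists in the right panel have medians that change sign with values as deposited.

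The step was set beside the equally long one before it and the one after it, which share samples with it. Assembly genes had a median difference of 0.21 from phase 252-276 to phase 291-315, 0.46 in the step described here and 1.61 from phase 331-354 to phase 362-385. Sulfate uptake and reduction had 0.26, 0.53 and 1.14. Storage carbohydrate genes had -0.06, -0.38 and -1.82, and stress genes 0.03, -0.23 and -1.80. Cell separation genes had -0.23, -0.77 and 0.12, so that their largest decline of the 3 steps was the one described here. Ribosomal proteins had 0.08, 0.00 and 0.44.

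Whether the step differed from the preceding one was tested per probe set over 12 samples. Of 5470 probe sets 0 (0.0%) had a difference of the differences that passed the threshold (limma, lowest adjusted p = 0.0640), and 802 had an unadjusted p under 0.05. Without the sample at 275.57 degrees 5 were called below 0, and with values as deposited 157 were called above 0 and 6 below. For example, SUN4 had a difference of the differences of -0.83 (unadjusted p = 0.00143), PRY3 -1.03 (unadjusted p = 0.00724) and GIC2 0.72 (unadjusted p = 0.00571), and none passed the adjustment. PCL9 had a value of -0.08. Its mean signal was 3024, 1472 and 657.7 in phases 252-276, 291-315 and 331-354.

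Measures of the arrays were set beside these results. The median signal before scaling was 2111 ± 64.2 in phase 331-354, against 1762 ± 234 in phase 291-315 (SD over 4 arrays). The array number in the labels was 2 to 30 in phase 331-354 and 25 to 45 in phase 291-315, so that array number and phase group were partly bound together. With that number as a term in the fit of the 8 samples, 580 probe sets were called higher and 888 lower, the assembly genes had a median of 0.73 with 113 called, and storage carbohydrate genes a median of -0.63 with 20 called. With the spread taken from all 49 samples, 4 were called higher and 37 lower, and no assembly gene was called. A sign of RNA quality, the excess of 3' over 5' signal on the log2 scale, averaged 0.28 in both groups for ACT1 and 0.33 in both for RIP1. It was 0.05 in phase 331-354 and 0.03 in phase 291-315 for TDH1. For SPT15 it was 0.96 ± 0.05 in phase 331-354, against 1.03 ± 0.04 in phase 291-315 (SD over 4 arrays).

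Marker genes of cell type were summed in both groups. The 8 a-specific genes summed to 31642 to 33669 in phase 331-354 and 32991 to 36586 in phase 291-315, and the 6 alpha-specific genes to 3008 to 3098.5 in phase 331-354 and 2897 to 3249 in phase 291-315. HMLALPHA1, their activator, averaged 7.70 in phase 331-354 and 16.4 in phase 291-315, near the 11.2 that served as background. Of 44 meiosis and sporulation genes 1 (2.3%) rose and 5 (11.4%) fell, against 6.95% and 6.53% of all probe sets. The 44 genes summed to 17518 to 20128.5 in phase 331-354 and 20291.5 to 20761 in phase 291-315. The part of array number, signal level and these markers in the results was not tested.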

How the data were processed

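Per the submitters' processing notes GCOS made the deposited values, a linear intensity for each probe set, with version and settings not given in the sources used here. RNA was amplified from oligo(dT) primers and labelled with biotin per the labels' protocols. The depth of an array cannot be stated, and the number of arrays limits the precision.

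The table holds 10928 probe sets, of which 5498 have 1 S. cerevisiae gene in the platform annotation, with several for 1, another species' genes for 1746 and no gene for 3683. Symbols of 12 were updated through the gene ID in a RefSeq gene table. Each of the 49 arrays was set to a median of 1890.6 over the 5498 (medians as deposited were 1449.8 to 2582), a floor of 1 was applied and log2 values were formed. Probe sets were tested where the median over 49 samples exceeded 11.2, the 75th percentile of other-species medians, which left 5470 (5428 genes). Probes follow a reference sequence and not the CEN.PK strain, so sequence differences can lower a signal.

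Groups were compared with lmFit and eBayes of limma 3.58.1 in R 4.3.3, two-sided, with Benjamini-Hochberg adjustment over 5470 at 0.05. The difference of the differences took phase 331-354 minus 2 times phase 291-315 plus phase 252-276. The sample at 322.77 degrees lay between the groups and entered no comparison of groups, but it counted in the filter and the common median and entered the straight-line and all-groups alternatives. Genes were named by rule: the 12 largest called rises and falls among genes whose groups do not overlap and whose higher mean signal is at least 100, and, per list, the 2 members with a call and the greatest difference. Not all are printed, and further list members were named after their values were seen. Where a gene had several probe sets (41 genes, of which 8 had differing calls), the brightest stood for it. The 43 lists come from textbook knowledge. The members and lists were chosen with earlier results of these data known, and the subdivision by role was made after the values were seen.

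The fit was tested on simulated data with 50 probe sets changed at each fold among 5470 and independent noise, which successive samples of a culture need not have. In the comparison it called 5 unchanged probe sets and recovered 46% of those changed 1.25-fold, 88% of those changed 1.5-fold and 98% of those changed 2-fold. For the difference of the differences these numbers were 6, 20%, 70% and 98%. Alternatives were other scalings, filters, a log offset, an intensity trend, array number, a straight line in time, the spread of all groups, and each sample left out. No promoter sequences were used here. Tables were handled in Python 3.11.15 with pandas 2.3.3 and numpy 2.4.6, and plots drawn with matplotlib 3.10.9.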

Additional observations from a re-analysis of the deposited data

Results flagged for a closer look

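Of 248 groups of 4 values tested for a sample apart from the other 3 (named genes and list means, in both groups of samples), 10 (4.0%) had one. The test is set to flag 1 in 20 of independent values. Successive samples, and genes and lists read from the same arrays, are not independent, so that rate does not apply here. In phase 331-354, MAK16 had 1484 at 354.23 degrees, against 977.8 to 1013 in the other 3 samples, and SEC16, a coat protein of the secretory pathway, had 1830.3 there, against 2025 to 2053. In phase 291-315, ATP19, of the ATP synthase, had 9409.9 at 307.04 degrees, against 7665 to 7733, the old yellow enzyme OYE2 had 4575.5 at 299.17 degrees, against 5360 to 5514, PSD1, phosphatidylserine decarboxylase, had 2321 at 314.90 degrees, against 2676 to 2702, and SEC12, an exchange factor of the secretory pathway, had 1216 there, against 1058 to 1076.

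The sample at 307.04 degrees of phase 291-315 held 5 of the 10. Besides ATP19, the geometric mean of cytosolic ribosomal proteins was 12533 in it, against 11033 to 11097 in the other 3 samples, that of core histones was 11040.5, against 9675 to 9748, that of fatty acid and phospholipid synthesis was 4151, against 3985 to 4006, and that of the vacuolar ATPase was 6058, against 5717 to 5744.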

How the results depend on the processing

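Every called probe set kept its sign under each alternative except with values as deposited, where 85.6% did, and where PUP1 had a difference of 0.001, PRE3 0.047, ECM22 0.012, STV1 0.080 and AGA2 0.012. The probe sets were chosen by their calls in the main fit of the same samples, so a kept sign gives no separate support. Against 380 higher and 357 lower, with 280 members of gene lists called and 24 named genes of largest change, the counts were 580, 888 and 542 with array number as a term, 4, 37, 10 and 9 with the spread of all groups, 11, 28, 12 and 10 with both, 0, 1, 0 and 0 with the first 2 samples of phase 331-354, 795, 983 and 591 with a straight line in time, and 1494, 46 and 518 as deposited. Counts of lower probe sets were 552 with an intensity trend and 230 with the 75th percentile set equal. Leaving out 1 sample gave 0 to 587 higher, 0 to 670 lower, 0 to 439 list members and 0 to 24 named genes. For the difference of the differences, 0 were above 0 without any 1 sample and 0 to 5 below. As deposited 157 were above and 6 below, and 1 was below with an intensity trend, with a median signal of at least 100 or with an offset of 32. Causes were not tested. Quantile normalization and no filter kept the main counts within 1.5 times. No paired analysis was possible because the labels give no replicate numbers, and samples are successive times. With 4 samples a group at a median SE of 0.07, many differences of the size seen fall close to the threshold.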

Other observations

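Further lists are described here by their values, with shares beside the 6.95% of all probe sets called higher and the 6.53% called lower. Their medians all lay below 0 and turned above 0 with values as deposited, so the directions given are those of single genes relative to the array median. Of 43 cell wall genes 9 (20.9%) fell, above the share of all probe sets, and 3 (7.0%) rose. Besides the separation genes the adhesin FLO11 fell, with 515.1 in phase 331-354 and 731.2 in phase 291-315 (difference -0.51, SE 0.10). GAS1 and FKS1, which build wall glucan, rose with 0.32 and 0.25. The pentose phosphate pathway, with 13 genes, had 2 calls (15.4%) each way. RKI1, ribose phosphate isomerase, rose with 2856.5, 3049.7, 3187 and 4221 in phase 331-354, against 2171 to 2437 in phase 291-315 (difference 0.52, SE 0.11), and TKL1, a transketolase, rose with 0.29. SOL4, a lactonase of the oxidative branch, fell with -0.48.

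Of 38 redox defence genes 2 (5.3%) rose and 4 (10.5%) fell, with the old yellow enzyme OYE2 at 0.46 and the stress-induced peroxiredoxin TSA2 at -0.46. Of 38 genes of autophagy and vacuolar proteases 4 (10.5%) fell and 0 rose, among them ATG8, which coats autophagosomes, with -0.31 (limma adjusted p = 0.0288). Of 31 iron and copper genes 4 (12.9%) fell and 1 (3.2%) rose, and of 33 genes of the heme and oxygen response 4 (12.1%) fell. Of 21 phosphate genes 1 (4.8%) rose, the transporter PHO84 with 0.47 at a low signal of 152.0 in phase 331-354 and 109.4 in phase 291-315. The proteasome gave 2 falls in 43 (4.7%), ergosterol synthesis 2 in 31 (6.5%) and the vacuolar ATPase 1 in 17 (5.9%). The secretory pathway gave 2 falls (4.4%) and 1 rise (2.2%) in 45, and fatty acid and phospholipid synthesis 1 (2.9%) each way in 35. Among 15 common reference genes limma called 0, with a median of -0.07. At an unadjusted p under 0.05, 1 was higher, against 830 of all 5428 tested genes.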
